A study of Mus musculus with 23 samples.

Results

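Matrix metalloproteinases (MMPs), their tissue inhibitors (TIMPs) and tissue plasminogen activator were followed across 5 plasticizers in TM4 Sertoli cells. The 10 genes were Mmp2, Mmp3, Mmp10, Mmp11, Mmp13, Mmp14, Timp1, Timp2, Timp3 and Plat. Each probe was assigned by the RefSeq transcript it was designed on, which gave 12 of the 55681 non-control probes and 10 of the 20145 named genes, with Mmp11 and Timp2 on a pair of probes each. TM4 is an immortalized mouse cell line that came from Sertoli cells of immature testes, and it was grown here without germ cells. All 6 groups received 1% DMSO for 48hr. The DMSO group received nothing else, and the other groups received 100 μM of MEHP (a monoester metabolite of the phthalate plasticizer DEHP), DINCH (a commercial diisononyl cyclohexane dicarboxylate), DOM (dioctyl maleate), BDB (a butanediol dibenzoate) or DOS (dioctyl succinate). Each group had 4 samples, which the series describes as biological replicates, except for DOS, which had 3 after 1 was left out by the authors for high background. Every sample was hybridized to its own 1-colour array, 23 arrays in all.

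MMPs are zinc-dependent enzymes that cut collagens, laminins and other matrix proteins and release growth factors from the cell surface. They are made as inactive precursors. Plasmin, which plasminogen activators produce, starts the activation of several secreted MMPs, and the membrane-bound enzyme encoded by Mmp14 activates the product of Mmp2 in a complex that needs TIMP2. TIMPs block the active enzymes, and TIMP3 stays bound to the matrix and also inhibits ADAM and ADAMTS proteases. In the testis, Sertoli cells secrete MMPs, TIMPs and plasminogen activators, and the balance between them is linked to the remodelling of cell junctions as germ cells move through the epithelium.

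Levels below are log2 intensities relative to the 75th percentile of the array, so that 0 is the signal at that percentile, and are comparable between arrays for the same probe but not between probes. Differences are differences between group means of these levels. A gene was called when limma gave a Benjamini-Hochberg adjusted p below 0.05, over all probes tested in that comparison, together with a change of more than 1.5-fold (0.58 on the log2 scale). On each array 43.4% to 52.2% of the spots were well above background, no spot was saturated, and no spot of the 12 probes was marked as an outlier. The number of arrays limits the precision of every difference, and in a culture fewer cells of a kind and less RNA per cell cannot be told apart. DOM, DOS and DMSO were hybridized in the same slide rows, whereas MEHP, DINCH and BDB were in the other rows, so that for these 3 the row and the comparison with DMSO cannot be told apart. All 5 comparisons with the vehicle share the same 4 DMSO arrays.

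The line was checked against markers of the cell types of the testis. Of 17 Sertoli cell markers, 8 were well above background on all 23 arrays, among them Gata4, Inha and Inhbb. Another 6 were detected on some arrays, and Wt1, Fshr and Cldn11 were detected on none. The germ cell genes Ddx4, Dazl and Stra8, the macrophage genes Adgre1 and Ptprc, the Leydig cell genes Cyp11a1, Hsd3b1, Hsd3b6 and Lhcgr and the endothelial genes Cdh5 and Tek were not well above background on any array. Other markers in the same lists were detected on all 23, namely Csf1r (macrophage), Cyp17a1 (Leydig cell) and Pecam1 and Kdr (endothelial). Star (Leydig cell) was detected on 12 arrays, and the germ cell genes Sycp3 and Zbtb16 on 4 and 1. The peritubular or smooth muscle genes Acta2, Tagln and Cnn1 and 4 of 6 fibroblast markers were also detected on all 23.

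The genes fell into a detected and an undetected set. Mmp2, Mmp11, Mmp14, Timp1, Timp2 and Plat were well above background on all 23 arrays and Timp3 on 19. The stromelysin gene Mmp3 and the collagenase gene Mmp13 were well above background on 0 of 23 arrays, with levels between -7.01 and -5.81 and between -7.15 and -4.76. The second stromelysin gene, Mmp10, was well above background only on the array of DMSO replicate 4, at -3.70, and ranged down to -6.88. These 3 genes entered no comparison, under any compound. Of 17 other MMP and TIMP4 genes with a probe, 10 were also undetected on every array, among them the gelatinase gene Mmp9, the collagenase genes Mmp1a and Mmp8 and the matrilysin gene Mmp7. Mmp17, which encodes a membrane-anchored MMP, and Mmp23 were the ones detected on all 23 arrays.

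The promoters of the 10 genes were searched for short motifs because the detected and undetected genes can be set side by side. RefSeq sequence (GRCm38.p6) was held for 8 of the 10. The last 120 bases before the annotated start are shown for the 3 undetected genes and for 3 detected ones, 5′ to 3′ on the strand of the gene, with motifs in capitals. The AP-1 site was searched as TGANTCA and the TATA box as its usual letters TATAAA, while a GC box was any GGGCGG, all of them on both strands. They are Mmp3 (chr9:7445702-7445821, plus strand), Mmp10 (chr9:7502222-7502341, plus strand), Mmp13 (chr9:7272394-7272513, plus strand), Mmp14 (chr14:54431478-54431597, plus strand), Timp2 (chr11:118355412-118355531, minus strand) and Timp3 (chr10:86300292-86300411, plus strand).
Mmp3: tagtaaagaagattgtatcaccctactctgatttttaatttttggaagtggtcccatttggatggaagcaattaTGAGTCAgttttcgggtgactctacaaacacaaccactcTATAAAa
Mmp10: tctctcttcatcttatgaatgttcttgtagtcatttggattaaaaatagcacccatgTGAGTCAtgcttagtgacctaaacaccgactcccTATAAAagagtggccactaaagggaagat
Mmp13: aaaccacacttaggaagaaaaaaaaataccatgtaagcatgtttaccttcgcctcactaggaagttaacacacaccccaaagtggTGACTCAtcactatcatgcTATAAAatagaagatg
Mmp14: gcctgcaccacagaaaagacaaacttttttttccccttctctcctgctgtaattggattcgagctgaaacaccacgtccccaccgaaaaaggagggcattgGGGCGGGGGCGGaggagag
Timp2: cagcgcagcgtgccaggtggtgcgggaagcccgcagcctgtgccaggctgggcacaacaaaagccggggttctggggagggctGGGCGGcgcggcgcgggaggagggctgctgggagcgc
Timp3: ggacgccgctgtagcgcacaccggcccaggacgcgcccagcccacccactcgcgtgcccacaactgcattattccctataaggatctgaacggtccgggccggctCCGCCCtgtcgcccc

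The promoters of Mmp3, Mmp10 and Mmp13, whose genes lie close together on chromosome 9, each held 1 AP-1 site and 1 TATAAA and no GC box in the 250 bases before the start. The first base of the AP-1 site lay 46 bases before the start in Mmp3, 63 in Mmp10 and 35 in Mmp13. Mmp11, Mmp14, Timp1, Timp2 and Timp3 held neither AP-1 nor TATAAA and held 1 or 2 GC boxes, those of Mmp14 following each other directly without overlap. Of 32851 promoters searched over the same length on both strands, 6.75% held the AP-1 letters, 12.4% held TATAAA and 32.7% held a GC box. These are matches of letters, and no binding was measured.

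DOM was the compound under which members were called. With DOM, Timp2 rose 2.08-fold on its brighter probe, while its dimmer probe did not pass the test (1.12-fold, adjusted p = 0.197). The gelatinase gene Mmp2 (1.54-fold) and Mmp14 (just over 1.5-fold) rose. Timp3 was called lower in a comparison with DOM arrays of which 1 of 4 was well above background. Of the 7 members tested, 4 were called, 3 higher and 1 lower. Over all 12005 genes tested in this comparison 20.5% were called, 9.9% higher and 10.6% lower. On the brightest probe of each gene, 6 of the 7 members had DOM arrays that did not overlap the DMSO arrays, as did 39.4% of all genes. The median difference was 0.56 against -0.03 over all genes tested. The members were chosen with earlier results of these data known, so setting them beside all genes is a description and not a test. Timp3 entered this comparison through its DMSO arrays alone, so that its call had to run in this direction, and it was lost with another background correction. The plot of levels by array shows the 7 measured genes in every group.

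**Figure D1:**
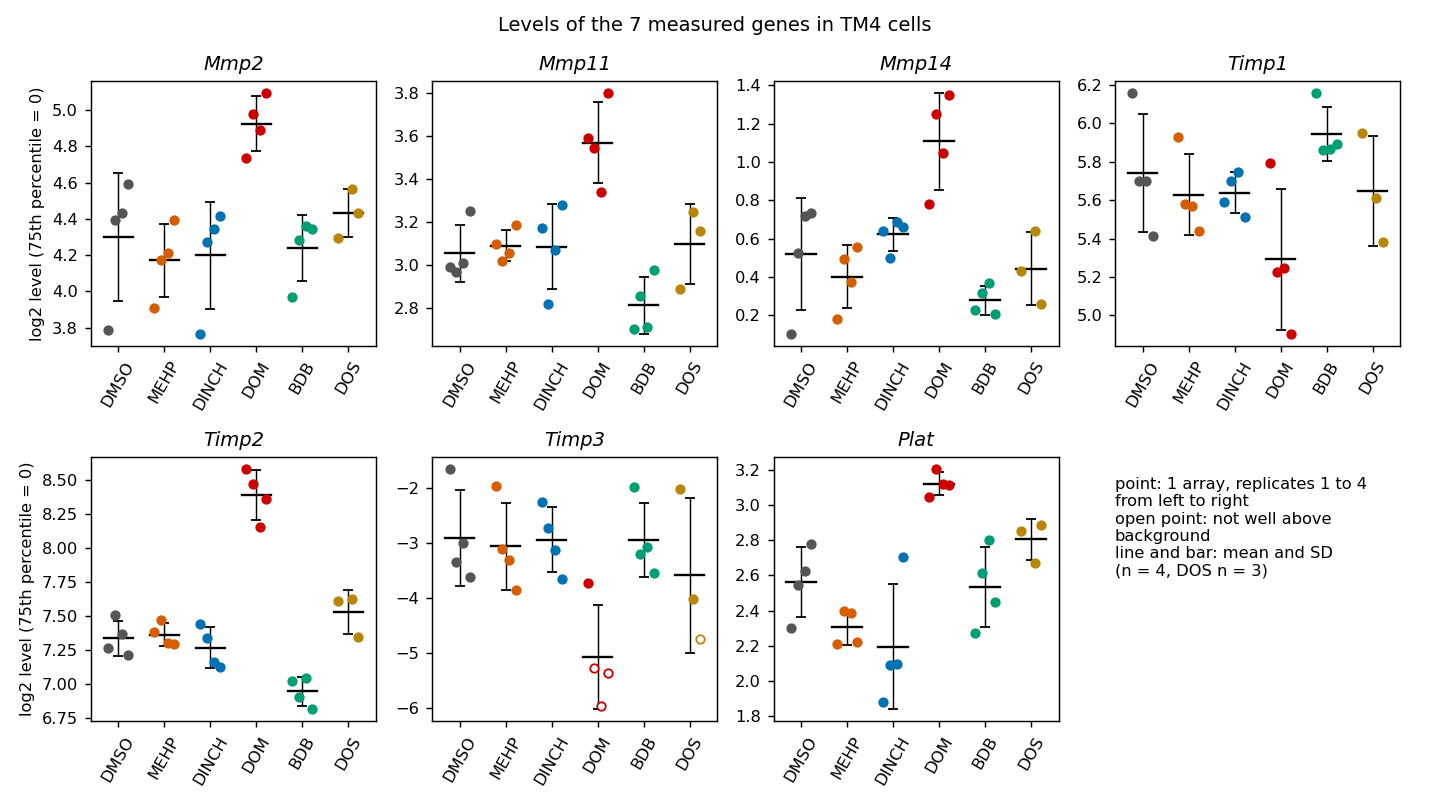
Each panel plots the log2 level of 1 gene (brightest probe, 75th percentile of the array at 0) on each array against treatment, with group means and SDs, and open points mark values not well above background. The 4 DOM arrays lie above all DMSO arrays for Mmp2, Mmp11, Mmp14, Timp2 and Plat and below them for Timp3, and they overlap the DMSO arrays for Timp1.

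Mmp2 encodes gelatinase A, which cuts denatured collagen and type IV collagen. Its levels were 3.79, 4.40, 4.43 and 4.59 on DMSO replicates 1 to 4 and 4.74, 4.98, 4.89 and 5.09 on DOM replicates 1 to 4. Every DOM array was above every DMSO array, the gap being narrow between DMSO replicate 4 and DOM replicate 1. The difference was 0.62 (SE 0.17, adjusted p = 0.0239). In the other groups Mmp2 lay between 3.77 and 4.56, with means of 4.17 ± 0.20 for MEHP, 4.20 ± 0.29 for DINCH and 4.24 ± 0.18 for BDB (SD, n = 4 each) and 4.43 ± 0.13 for DOS (SD, n = 3). These 4 group means and that of DMSO (4.30 ± 0.35, SD, n = 4) lay within 1 SD of their neighbours. Replicate 1 was the lowest array in 6 of 6 groups.

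Mmp14 encodes MT1-MMP, the membrane enzyme that activates pro-MMP2 and cuts fibrillar collagen. It stood at 0.10, 0.53, 0.72 and 0.73 on the DMSO arrays and at 0.78, 1.25, 1.05 and 1.35 on the DOM arrays. The groups did not overlap, but the lowest DOM array, replicate 1, was just above the highest DMSO array. The difference was 0.59 (SE 0.17, adjusted p = 0.0313), barely past the 1.5-fold limit. Means elsewhere were 0.62 ± 0.08 for DINCH, 0.40 ± 0.17 for MEHP and 0.28 ± 0.08 for BDB (SD, n = 4 each) and 0.44 ± 0.19 for DOS (SD, n = 3).

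Mmp11 encodes stromelysin-3, an MMP that furin activates inside the cell. Its brighter probe read 2.99, 2.97, 3.01 and 3.25 with DMSO and 3.59, 3.54, 3.34 and 3.80 with DOM. The dimmer probe read 2.17, 1.95, 2.07 and 2.30 with DMSO and 2.38, 2.75, 2.51 and 3.04 with DOM. On both probes all DOM arrays were above all DMSO arrays. The differences, 0.51 (SE 0.12, adjusted p = 0.0119) and 0.55 (SE 0.15, adjusted p = 0.0245), stayed below 1.5-fold, and Mmp11 was therefore not called.

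Timp2 had the lowest adjusted p of the members. TIMP2 inhibits MMPs and, at low amounts, takes part in the activation of pro-MMP2. The brighter probe stood at 7.26, 7.50, 7.36 and 7.21 on DMSO replicates 1 to 4 and at 8.58, 8.47, 8.15 and 8.36 on DOM replicates 1 to 4. The groups were well apart, with a difference of 1.05 (SE 0.12, adjusted p = 0.000496), which is 2.08-fold (95% interval 1.72 to 2.50). The other groups took the order DOS (7.52 ± 0.16, SD, n = 3), MEHP (7.36 ± 0.08), DMSO (7.33 ± 0.13), DINCH (7.26 ± 0.15) and BDB (6.94 ± 0.11; SD, n = 4 each). Arrays of neighbouring groups overlapped from DOS to DINCH. The BDB arrays (7.02, 6.90, 7.04 and 6.81) all lay below the DMSO arrays, by 0.39 (SE 0.10), which did not pass the adjustment over all probes (adjusted p = 0.122).

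The dimmer Timp2 probe did not pass the test. It stood at 4.81, 4.80, 4.70 and 4.75 with DMSO and at 4.91, 5.03, 4.79 and 5.01 with DOM, and the ranges overlapped. The difference was 0.17 (SE 0.09, adjusted p = 0.197, 95% interval -0.04 to 0.38). With DOS the same probe was higher than with DMSO by 0.22 (SE 0.11, adjusted p = 0.773), and all DOS arrays lay above the DMSO arrays. With DINCH it was higher by 0.17 (SE 0.11, adjusted p = 0.378). On each array the brighter probe minus the dimmer one was higher with DOM than with DMSO by 0.89 on average (two-sided exact permutation test, p = 0.0286, the smallest that 70 labellings can give, and 0.114 after adjustment over the 4 such differences computed). This test was chosen after the values were seen and did not pass the adjustment. At the smallest possible p it could pass only if most of the other differences reached that p too. The adjusted p therefore does not decide whether the probes differ. The Timp2 call rests on the brighter probe. In the same family of tests the difference between the Timp2 and Mmp2 changes was 0.43 (exact permutation p = 0.114), and that between Timp2 and Mmp14 was 0.47 (exact permutation p = 0.114). The difference between the probes of Mmp11 was -0.03 (exact permutation p = 0.857). The plot of both Timp2 probes sets their levels on axes of equal span.

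**Figure D2:**
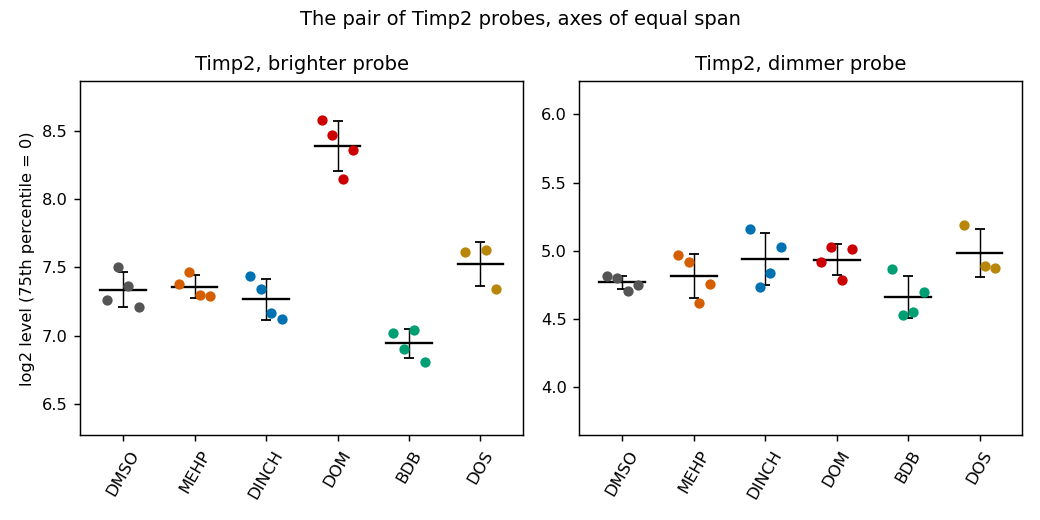
Log2 levels of the brighter and the dimmer Timp2 probe on each array against treatment, with group means and SDs, drawn on axes of equal span. The brighter probe sits 1.05 higher with DOM than with DMSO, whereas the dimmer probe sits 0.17 higher and its arrays overlap.

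Timp3 moved the other way. TIMP3 is the inhibitor held in the matrix, with the widest range of targets in the family. Its DMSO levels were -1.65, -3.35, -2.99 and -3.62, and its DOM levels were -3.73, -5.26, -5.95 and -5.36. DOM replicate 1, the highest, lay just below the lowest DMSO array and was the only DOM array well above background. The difference between the measured means was -2.17 (SE 0.53, adjusted p = 0.0131), but 3 of the 4 DOM values were not above background, so its size is not settled, and with normexp background correction it was -0.53 and the call was lost. The spread within groups was wide in all treatments, and replicate 1 was the highest array in 6 of 6 groups. With DOS the levels were -2.01, -4.01 and -4.74, the last not well above background, and overlapped those of DMSO.

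Timp1, the inducible inhibitor of the family, was not called with DOM. Its levels were 6.16, 5.70, 5.70 and 5.41 with DMSO and 5.79, 5.23, 5.25 and 4.90 with DOM. The groups overlapped, and the difference was -0.45 (SE 0.21, adjusted p = 0.133, 95% interval -0.92 to 0.02). Replicate 1 was the highest array in 5 of 6 groups. At each replicate number the DOM array was below the DMSO array, and on slides 1, 2 and 3 the difference was -0.65, -0.45 and -0.51. The main fit did not pair replicates, so spread shared by a replicate number stayed in the SE. With replicate number as a block Timp1 was still not called.

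Plat encodes tissue plasminogen activator, the protease that turns plasminogen into plasmin. It stood at 2.30, 2.55, 2.62 and 2.78 with DMSO and at 3.05, 3.21, 3.12 and 3.12 with DOM. All DOM arrays were above all DMSO arrays, by 0.56 (SE 0.12, adjusted p = 0.00639), which is 1.47-fold and just short of the limit for a call. Plat had a small spread with DOM (SD 0.07, n = 4).

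On slides 1, 2 and 3 taken separately, DOM minus DMSO kept its sign for each of the 7 genes. For all of them but Timp1 the DOM and DMSO arrays did not overlap, so that no split by slide could change the sign. The size of DOM minus DMSO was 1.26, 0.72 and 1.15 for Timp2, 1.07, 0.47 and 0.50 for Mmp2, 0.91, 0.42 and 0.62 for Mmp14 and -2.85, -2.78 and -1.74 for Timp3, from 1 or 2 arrays of each group per slide. The Timp3 values rest in part on DOM arrays that were not well above background. The Mmp2 and Mmp14 calls depended on single arrays. Without DMSO replicate 1 both differences fell below 1.5-fold (0.45 each), and leaving out DOM replicate 2 or DOM replicate 4 also ended both calls (Mmp2 at 0.60 and 0.57, Mmp14 at 0.54 and 0.51), whereas without DOM replicate 1 all 7 members were called. Mmp14 also lost its call without DMSO replicate 2 (0.59, adjusted p = 0.0649) and without DOM replicate 3 (0.61, adjusted p = 0.052). With normexp background correction in place of the scanner software's subtraction, Timp2 alone was called and Timp3 differed by -0.53.

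Marker genes of other cell types were read on the same arrays. Summed over 14 Sertoli markers, the signal relative to the 75th percentile was 15.1 to 28.9 with DMSO and 44.0 to 69.9 with DOM, and of 10 tested, the inhibin genes Inhbb (1.61) and Inha (1.05) rose and Sox9 fell by 0.92 on the log2 scale. The sum of 5 fibroblast markers was 477.2 to 655.2 with DMSO and 555.9 to 743.0 with DOM, with Pdgfra higher by 0.86. The sum of 4 peritubular or smooth muscle markers was 116.1 to 149.1 with DMSO and 117.5 to 158.0 with DOM, with Cnn1 lower (-1.21). Leydig cell (10.2 to 21.3 and 8.25 to 12.0, over 2 genes), endothelial (16.3 to 23.3 and 11.3 to 19.5, over 2 genes) and germ cell (0.03 to 0.06 and 0.04 to 0.09, over 2 genes) sums and the macrophage gene Csf1r (2.53 to 5.20 and 3.02 to 3.35) overlapped between DMSO and DOM. The part of these shifts in the differences of the members was not tested.

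With MEHP, DINCH, BDB and DOS, 0 of 7 members were called, where 1.69%, 8.26%, 0% and 0% of all genes tested were called. At an unadjusted p below 0.05 in limma on the brightest probe there was 1 member with MEHP (Plat, -0.26, adjusted p = 0.298), 0 with DINCH, 2 with BDB (Timp2 and Mmp11, the latter at -0.24, adjusted p = 0.328) and 0 with DOS. Over all genes, 2253 of 11947 with MEHP, 3671 of 11913 with DINCH, 1953 of 11965 with BDB and 756 of 11933 with DOS had an unadjusted p below 0.05 on their brightest probe. The intervals show how large an undetected difference could have been. Leaving Timp3 aside, the 95% intervals of the members reached from -0.54 to 0.27 with MEHP, from -0.78 to 0.43 with DINCH, from -0.61 to 0.55 with BDB and from -0.55 to 0.56 with DOS. For Timp3 they were wider, -1.26 to 0.96 with MEHP and -2.21 to 0.84 with DOS. DINCH had its lower limit in Plat, which stood at 1.88, 2.09, 2.10 and 2.71 and differed from DMSO by -0.37 (SE 0.18, adjusted p = 0.237). The plot of differences from DMSO gives all 7 genes under each compound.

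**Figure D3:**
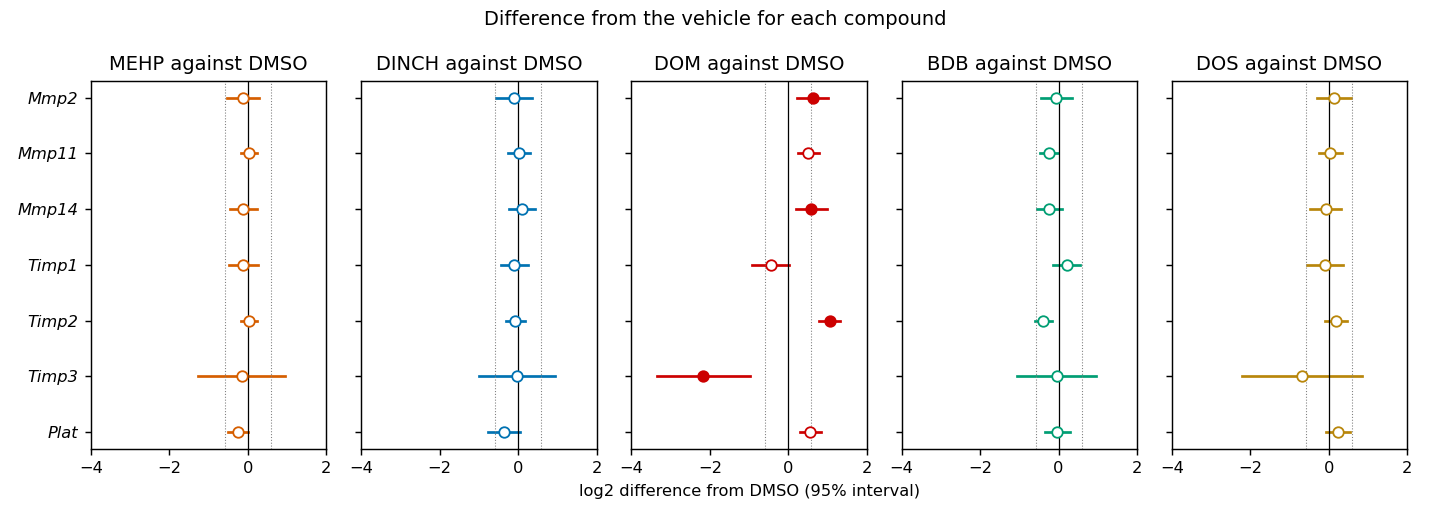
Log2 difference from DMSO with its 95% interval for 7 genes (rows) under each compound (panels), where filled points mark calls and dotted lines mark 1.5-fold. Filled points occur under DOM for Mmp2, Mmp14, Timp2 and Timp3, and the intervals of MEHP, DINCH and BDB cross 0 for all genes except Plat under MEHP and Mmp11 and Timp2 under BDB.

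The compounds were also compared with each other at the same dose and time, in 4 pairs. DOM and DOS carry the same octyl esters, on an unsaturated (maleate) and a saturated (succinate) core. Of 6 members tested, 3 were called higher with DOM than with DOS, where 15.2% of all genes tested were called. These were Timp2 on its brighter probe (0.86, SE 0.14, adjusted p = 0.00556), Mmp14 (0.66, SE 0.16, adjusted p = 0.0259) and Mmp11 on its dimmer probe (0.66, SE 0.17, adjusted p = 0.03). The brighter Mmp11 probe differed by 0.47 (adjusted p = 0.0518) and was not called. The dimmer Timp2 probe differed by -0.05 (adjusted p = 0.811, 95% interval -0.33 to 0.23). With replicate number as a block, Mmp14 lost its call and Timp2 and Mmp11 were called. Mmp2 was higher by 0.49 (adjusted p = 0.0282) and short of 1.5-fold, and Plat was higher by 0.32 (adjusted p = 0.068). Timp1 differed by -0.36 (95% interval -0.85 to 0.14), and Timp3 was not tested because neither group was well above background on all its arrays. Timp2 alone was left as a call without DOS replicate 1, DOS replicate 4, DOM replicate 2 or DOM replicate 4.

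MEHP and DINCH were compared with DOM directly. Of 7 members, 6 were called between MEHP and DOM (19.5% of all genes tested) and 4 between DINCH and DOM (23.3% of all genes tested). On its brighter probe Timp2 was lower than with DOM by 1.03 with MEHP (adjusted p = 0.000222) and by 1.12 with DINCH (adjusted p = 0.000236). On the dimmer Timp2 probe the differences from DOM were -0.12 with MEHP (adjusted p = 0.416, 95% interval -0.36 to 0.12) and 0.00476 with DINCH (adjusted p = 0.98, 95% interval -0.27 to 0.28). Both counts include Timp3, called higher with MEHP and with DINCH than with DOM, where 1 of 4 DOM arrays was well above background. It entered these comparisons through its MEHP or DINCH arrays alone, so that its calls had to run in this direction. Both Timp3 calls were lost with normexp background correction. The MEHP and DOM arrays overlapped for Timp3. Plat differed from DOM by -0.82 with MEHP (adjusted p = 0.000214) and -0.93 with DINCH (adjusted p = 0.00254), and Mmp2 by -0.75 (adjusted p = 0.00181) and -0.72 (adjusted p = 0.00667). Mmp14 and Mmp11 were called between MEHP and DOM (-0.71, and -0.62 on the dimmer probe). The brighter Mmp11 probe differed by -0.48 there, under 1.5-fold, and was not called. Between DINCH and DOM, Mmp14 differed by -0.48 and Mmp11 by -0.48 on its brighter and -0.55 on its dimmer probe, all under 1.5-fold. These 2 comparisons and that with DOS share the DOM arrays, and MEHP and DINCH lay in other slide rows than DOM.

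Between MEHP and DINCH, 0 of 7 members were called and 0 had an unadjusted p below 0.05 in limma, where 2.4% of all genes tested were called and 2591 of 11836 had an unadjusted p below 0.05 on their brightest probe. The 95% intervals of the differences, Timp3 aside, lay between -0.46 (Mmp14) and 0.48 (Plat), and that of Timp3 ran from -1.01 to 0.78. DOM and BDB were not compared directly.

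Other genes that act on the matrix were counted in 6 lists. With DOM, 4 of 11 tested genes of the plasminogen system were called and all 4 rose, beside 20.5% of all genes tested called and 9.9% called higher. Among them were F3 (tissue factor, the trigger of coagulation, 0.88, SE 0.19), Lrp1 (an endocytic receptor that clears proteases bound to inhibitors, 0.68, SE 0.11) and Serpini1 (neuroserpin, an inhibitor of tissue plasminogen activator, 0.60, SE 0.14). Plau, which encodes urokinase, differed by 0.25 (adjusted p = 0.224) and its receptor gene Plaur by -0.26 (adjusted p = 0.335). The median of the list was 0.16.

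Among 21 ADAM and ADAMTS proteases tested with DOM, 8 were called, 7 higher and 1 lower, beside 20.5% of all genes tested. Adamts1, a protease that cuts aggrecan and versican, rose by 2.17 (SE 0.19, adjusted p = 0.00021), from 0.93 ± 0.29 to 3.10 ± 0.31 (SD, n = 4). Adamts3, which trims procollagen, is 1 of the 7 but was well above background on 1 of 4 DMSO arrays and entered the comparison through its DOM arrays, so no size is given. Adamts9 (1.23) and Adamts2 (0.97), another procollagen peptidase, rose, and Adam8 fell (-1.10). The sheddase genes Adam10 (0.28, adjusted p = 0.0807) and Adam17 (0.05, adjusted p = 0.855) did not pass the test. With DINCH, 3 of 20 were called, beside 8.26% of all genes tested, all higher: Adamts5 (1.18), Adam8 (0.98) and Adamtsl4 (0.97). Adam8 was thus lower with DOM and higher with DINCH, each against the same DMSO arrays.

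Activators and cell surface regulators of MMPs gave 4 calls of 20 tested with DOM, 3 higher and 1 lower. This share was close to the 20.5% called over all genes tested. Itgb3, a subunit of the vitronectin receptor, rose by 1.54 (SE 0.30), Cst6, a cysteine protease inhibitor, by 1.06 (SE 0.14), and the protease gene Ctsd was called on its dimmer probe (0.69), while Cd44, the hyaluronan receptor, fell by 1.08 on the log2 scale. Furin (0.23, adjusted p = 0.173), the membrane-anchored MMP inhibitor gene Reck (0.12, adjusted p = 0.683) and Bsg (-0.04, adjusted p = 0.796), which encodes the MMP inducer basigin, did not pass. With DINCH 2 of 20 were called lower, Cd44 on a dimmer probe (-0.78) and the proteoglycan gene Sdc4 (-0.62), beside 8.26% of all genes tested called in either direction.

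The list of AP-1, ETS and RUNX transcription factors also held Cebpb, Cebpd, Nfkb1 and Rela. It gave 7 calls of 26 with DOM, 4 higher and 3 lower, beside 20.5% of all genes tested. Fosl2 (1.27, SE 0.17) and Runx2 (1.19, SE 0.23) rose with Elk3 (0.66), and Ets1 was called on a dimmer probe (0.68). Etv4 (-1.30, SE 0.22), Atf3 (-1.24, SE 0.23) and Etv5 (-1.14, SE 0.19) fell. Fosl1 (0.33, adjusted p = 0.172) and Jun (-0.54, adjusted p = 0.185) did not pass. With DINCH 4 of 26 in this list were called, beside 8.26% of all genes tested. Fosl1 (-1.89, SE 0.36) fell together with Etv5 (-1.65, SE 0.39), and Cebpd rose (0.60). Fos was called lower but was well above background on 1 of 4 DINCH arrays. Of the genes whose promoters hold the AP-1 letters shown above, Mmp3 and Mmp13 were not well above background on any array. Mmp10 was so only on DMSO replicate 4. A link between these factors and the members was not tested.

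Of 27 matrix substrates tested with DOM, 6 were called and all rose. A difference above 0 was seen for 22 of 27 (median 0.35), beside 47.2% of all genes tested. Thbs1 (thrombospondin-1) rose by 1.81 (SE 0.23), the fibrillar collagen genes Col3a1 by 1.10 (SE 0.35) and Col5a2 by 0.90 (SE 0.19), Col6a1 by 0.73 (SE 0.23), and the basement membrane genes Col4a2 by 0.70 (SE 0.11) and Col4a1 by 0.67 (SE 0.11). Type IV collagen is a substrate of the Mmp2 product. Between DOM and DOS, 14 of the 27 substrates had a difference above 0 (median 0.00365), and DOS against DMSO had 25 of 27 above 0 (median 0.19). With MEHP the 1 called gene of the list was Dcn (decorin, -1.12, SE 0.22), and with DINCH 3 were called, the fibrillin gene Fbn1 (-1.26) and Tnc (tenascin, on a dimmer probe that was well above background on 0 of 4 DINCH arrays) lower and Nid2 (0.81) higher. Of the 4 other MMP and TIMP4 genes tested with DOM, Mmp23 was called (0.76, SE 0.14). With BDB and DOS no gene of the 6 lists was called. The shares called with DOM, from 20% of the regulators to 38.1% of the ADAM and ADAMTS genes, stand beside 20.5% of all genes tested. With DINCH they ran from 0% of the other MMP and TIMP4 genes to 15.4% of the transcription factors, beside 8.26% of all genes tested. With MEHP 3.7% of the matrix substrates were called, beside 1.69% of all genes tested. The plot of the 6 lists under DOM shows each gene tested.

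**Figure D4:**
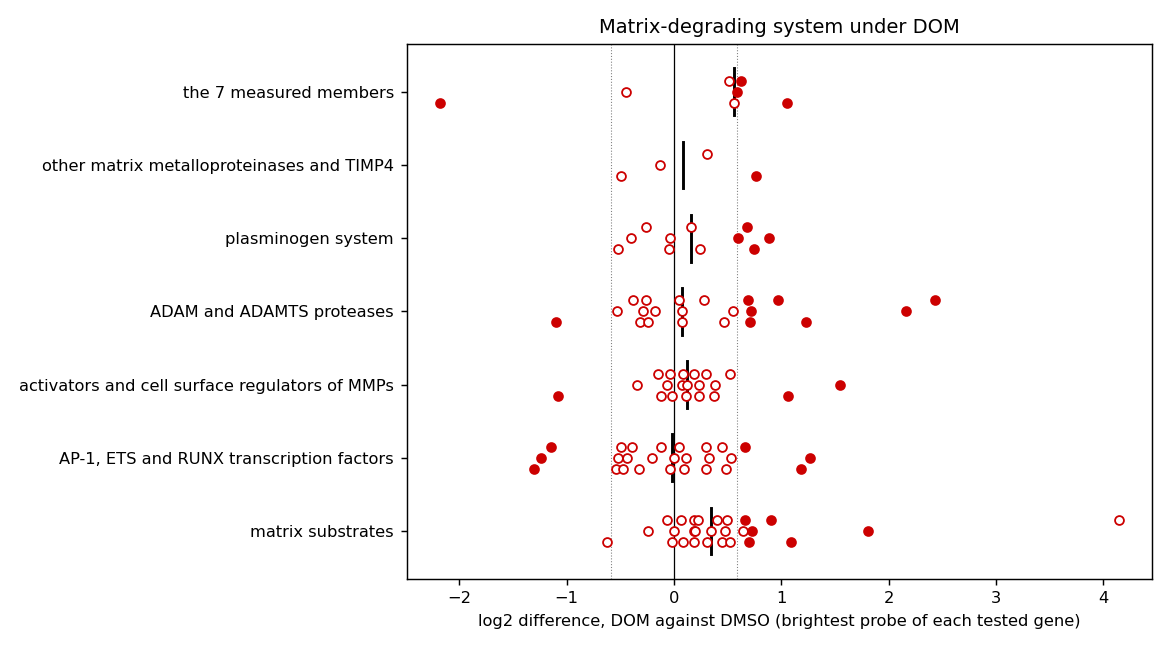
Log2 difference between DOM and DMSO for the brightest probe of each tested gene (points) in the 7 members and 6 lists of related genes, with filled points for calls, thick bars for list medians and dotted lines for 1.5-fold. The matrix substrates have a median of 0.35, and the open point at 4.14 is Thbs2.

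Thbs2 (thrombospondin-2), named after its values were seen, had the largest difference in these lists (4.14, SE 1.53, adjusted p = 0.0676) and was not called. It stood at 4.57, 5.18 and 5.67 on DMSO replicates 1 to 3 and at -2.32 on DMSO replicate 4, while the other 22 arrays of the series ranged from 3.66 to 7.73. Without DMSO replicate 4 it was higher with DOM by 2.28 (SE 0.29, adjusted p = 0.00185).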

How the data were processed

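RNA of 23 samples, grouped by their titles, was labelled with Cy3 and hybridized to Agilent mouse arrays. The authors read the spots with Feature Extraction 11.5.1.1, and the deposited intensities are on a linear scale after background subtraction and spatial detrending, with no scaling from array to array. A second deposited file holds the authors' log2 values, set to the 75th percentile and centred per probe, and served as an alternative only.

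Each intensity was floored at 1, log2 transformed and expressed relative to its array's 75th percentile. Spots marked as outliers were dropped (102 to 187 per array) and repeated spots averaged. RefSeq accessions named 26582 of 55681 probes (20145 genes), and the unnamed probes were tested too. Array and symbol table use different genome builds, so no probe position was used. Where a gene had several probes, the brightest gave its value and a call on any probe counted. A probe was tested if, in 1 group or more, every array had it well above background and not below the 20th percentile. Both groups of a comparison entered limma 3.58.1 (lmFit, eBayes; R 4.3.3, data.table version 1.17.8), with Benjamini-Hochberg adjustment over all tested probes. A call needed an adjusted p below 0.05 and a change above 1.5-fold. P-values are limma's unless an exact permutation test is named, and they measure the spread between these samples. The limma fit, the adjustment and the rule for a call were tested on simulated levels, and the other steps were not. Python 3.11.15 and matplotlib 3.10.9 handled promoters and figures.

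The members and lists were chosen with earlier results of these data known. Named genes are the 10 members, up to 5 called genes with the largest change per list and compound, and Plau, Plaur, Adam10, Adam17, Adamts1, Reck, Bsg, Furin, Fosl1, Jun and Runx2, less items not reported here. Thbs2 and the differences between probes were chosen after the values were seen.

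Alternatives covered normalization (quantile, percentile of detected probes), background (normexp, offset 50), the filter (none, or 1 detected array), blocks (slide, replicate number), the fit (6 groups together, variance trend), the spots and probes used (outliers kept, brightest probe alone), the authors' log2 values and each array left out. To check the pairing, departures from group means were correlated between arrays that share a replicate number. Every pair exceeded 0.1 for DINCH (0.17 to 0.50), BDB (0.25 to 0.43) and DOS (0.20 to 0.45) against DMSO, DOM against DOS (0.10 to 0.40) and MEHP against DOM (0.19 to 0.61), but not for MEHP (-0.14 to 0.45) or DOM (0.04 to 0.43) against DMSO, DINCH against DOM or MEHP against DINCH. Viability and qPCR data were not analysed here.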

Additional observations from a re-analysis of the deposited data

Results flagged for a closer look

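Within groups of 4, 46 sets of arrays were examined for 1 array standing apart, which chance alone gives in about 1 of 20, and 2 did. The brighter Mmp11 probe was highest on DMSO replicate 4 (3.25, the nearest being 3.01), and the gap was 0.848 of the group's range. Timp1 was highest on BDB replicate 1 (6.16, the nearest being 5.89), and the gap was 0.900 of the range.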

How the results depend on the processing

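For DOM against DMSO, 4 members were called. There were 5 with quantile normalization, the percentile over detected probes or the slide as a block, which added Plat (0.60, 0.59 and 0.59), 2 with detection on 1 array, and 1, Timp2, with normexp background correction or without the filter on dim probes. Without the filter the differences were the same and more probes entered the adjustment (adjusted p 0.063 for Timp3, 0.117 for Mmp2 and 0.141 for Mmp14). As each array was left out the count ran from 2 (without DMSO replicate 1, DOM replicate 2 or DOM replicate 4, Timp2 and Timp3 being called) to 7 (without DOM replicate 1). Without replicate 1 of both groups, chosen after the values were seen, Mmp2 (0.51) and Mmp14 (0.56) fell under 1.5-fold. Timp2 was called under every alternative run (0.97 to 1.27). For DOM against DOS, 3 members were called, 1 with detection on 1 array, 0 without the filter in limma, and 1 to 3 as each array was left out, with 1 (Timp2) without DOS replicate 1 or 4 or DOM replicate 2 or 4. The counts ran from 3 to 6 for DINCH against DOM and from 5 to 6 for MEHP against DOM as arrays were left out, and stayed at 0 in the other comparisons.

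With the replicate block the same 4 members were called for DOM against DMSO, 2 for DOM against DOS (Mmp11 and Timp2), 4 for DINCH against DOM, 6 for MEHP against DOM and 0 in the others. Over all genes the block gave 166 calls in place of 284 for MEHP against DINCH.

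Over all genes, normexp gave 1627 calls in place of 2463 for DOM, 115 in place of 202 for MEHP, 594 in place of 984 for DINCH, 42 in place of 0 for BDB, 2 in place of 0 for DOS, 1845 in place of 2774 for DINCH against DOM and 1527 in place of 2323 for MEHP against DOM. Without the filter there were 3 for MEHP, 97 for DINCH, 19 for MEHP against DINCH and 401 in place of 1815 for DOM against DOS. Detection on 1 array gave 98 for MEHP, 609 for DINCH and 88 for MEHP against DINCH. BDB had 82 with a variance trend, 120 when the 6 groups shared 1 fit and 100 when slide was blocked. Single arrays left out gave as few as 88 for MEHP (without MEHP replicate 2 or 4), 571 for DINCH (without DMSO replicate 3) and 83 for MEHP against DINCH (without MEHP replicate 2), and 8 for DOS (without DOS replicate 3). Without replicate 1 of both groups there were 553 for DINCH and 78 for MEHP against DINCH. Quantile normalization turned the DOM split from 1189 higher and 1275 lower into 1374 and 1092. The cause of these shifts was not tested.

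Uncalled differences near 0 changed sign as single arrays were left out. With MEHP they ranged from -0.223 to 0.0257 for Timp1, -0.0162 to 0.0805 for Timp2 and -0.515 to 0.265 for Timp3. With DINCH the ranges were -0.274 to 0.0419 for Mmp2, -0.0341 to 0.119 for Mmp11, -0.0376 to 0.172 for Mmp14, -0.214 to 0.0352 for Timp1 and -0.276 to 0.381 for Timp3. With BDB they were -0.233 to 0.0344 for Mmp2, -0.368 to 0.371 for Timp3 and -0.12 to 0.0576 for Plat, and with DOS -0.043 to 0.225 for Mmp2, -0.0306 to 0.148 for Mmp11, -0.216 to 0.0154 for Mmp14 and -0.245 to 0.0448 for Timp1. Without replicate 1 of both groups the sign turned for Timp2 with MEHP (-0.00586), for Mmp11 (-0.0207), Mmp14 (-0.0437), Timp1 (0.0503) and Timp3 (0.15) with DINCH and for Timp3 with BDB (0.0493). It also turned with quantile normalization for Timp3 with DINCH (0.0181) and Plat with BDB (0.00483), with the percentile over detected probes for Plat with BDB (0.000521), with the slide as a block for Mmp11 (-0.041) and Timp3 (0.0802) with DINCH and Mmp11 with DOS (-0.0722), and with normexp for Mmp11 with DOS (-0.0145). Signal over background limits Timp3, which was well above background on 1 of 4 DOM arrays, and left Mmp3, Mmp10 and Mmp13 untested.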

Other observations

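Replicate 1 lay at an end of its group for several members. It was the lowest array in 6 of 6 groups for Mmp2 and in 5 of 6 for Plat, and the highest in 6 of 6 for Timp3 and in 5 of 6 for Timp1. Of 11158 genes examined, 1, which was not a member, differed on replicate 1 by more than 1 log2 unit in the same direction in all 6 groups, and 0 did so on replicates 3 and 4 or, over the 5 groups that have it, on replicate 2.

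With DOS, 25 of 27 matrix substrates had a difference from DMSO above 0 (median 0.19), beside 47.8% of all genes tested, and 0 were called in limma. With DINCH 7 of 27 and with MEHP 9 of 27 were above 0 (medians -0.23 and -0.16), beside 49.9% and 47.1% of all genes tested. Between DOM and DOS 14 of the 27 were above 0 (median 0.00365), and 6 were called, 5 higher and 1 lower with DOM. The share called over all genes was 15.2% there. Between DINCH and DOM 14 of the 27 were called, 13 of them lower with DINCH, where 23.3% of all genes tested were called. Between MEHP and DOM 13 were called, 11 of them lower with MEHP, where the share over all genes was 19.5%.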
